A study of Caenorhabditis elegans with 6 samples.

Results

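Nuclear hormone receptor genes of Caenorhabditis elegans, a free-living nematode, were examined in whole animals given tryptophan, an essential amino acid. The genes were chosen by name, as those whose symbol in the WBcel235 annotation begins with nhr-, together with daf-12, and by a mean level of at least 1 FPKM over all libraries (fragments per kilobase of gene model, scaled to the mapped fragments of the library). The symbol pxr-1 was also looked for and not found. This gave 138 genes of the 46589 identifiers measured. They were drawn from 268 family genes, of which 130 lay under 1 FPKM and 37 were listed at 0 in every library. The lowest gene inside the limit was nhr-7, with a mean of 1.01 FPKM, and the highest outside it was nhr-231, with 0.998 FPKM. A further 2 loci, nhr-144 and nhr-151, with means of 1.31 and 1.70 FPKM, bear these names only in the RefSeq table, which classes them as pseudogenes, and were not counted.

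The study compared 3 control libraries with 3 libraries from animals that received 5 mM tryptophan for 36 h from the last larval stage, L4. All 6 came from wild-type (WT) young adult hermaphrodites kept at 20 °C, with RNA taken from the whole body. The replicates are numbered 1 to 3 in each group, and nothing says whether they were separate cultures, so the p-values describe the spread of these 6 libraries, which may be technical. Since whole animals were used, fewer cells of a type and less RNA per cell cannot be told apart.

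Nuclear hormone receptors are transcription factors that pair a zinc-finger DNA-binding domain with a domain that can hold a small lipophilic ligand, such as a steroid or a fatty acid. The nematode family is greatly expanded, mostly from an ancestor like the vertebrate factor HNF4, and most of its members have no known ligand or target. Those that have been studied set fat metabolism, the use of vitamin B12 and methionine, detoxification, defence in the intestine, moulting and entry into the dauer larva.

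Control library 1 and tryptophan library 1 stood apart from the other 4 libraries. Across the 138 receptor genes the correlation of log2 levels was 0.41 between these 2 libraries, against 0.89 to 0.96 among the other 4. Yolk genes (vit-1 to vit-6, 6 of 6 detected) summed to 19564 FPKM in the first control library and 406.1 FPKM in the first tryptophan library, against 946 to 1865 FPKM in the other controls and 3951 and 1885 FPKM in the other tryptophan libraries. Sperm genes (31 msp genes, 31 of 31 detected) ran the other way, at 508.0 and 22030 FPKM in these 2 libraries, against 5600 to 8584 FPKM elsewhere. Marker lists of oocytes, germline, intestine, hypodermis, neurons and body muscle were detected in full, with none of their genes at 0 in every library. The libraries held an estimated 14.4 to 24.5 M (mega) counted units, so that the least covered receptor gene rested on a mean of 23.4 units per library and the lowest value of any of them in a single library on 3.95 units. The median over receptor genes of the units in their lowest library was 42.4. Results are therefore given for all 6 libraries and for libraries 2 and 3 of each group.

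No receptor gene passed the limma test over all 13511 genes tested. The count was 0 of 138 at an adjusted p under 0.05, as it was over all tested genes (0%), and the smallest limma adjusted p among the receptor genes was 0.802. At an unadjusted p under 0.05 there was 1 receptor gene in the higher direction, nhr-17, against 0.822% of all tested genes, and 1 in the lower direction, nhr-114, against 0.348%. In libraries 2 and 3 the count was also 0 of 138 over all genes, against 0.503% of all tested genes, and at an unadjusted p under 0.05 there were 2 higher and 4 lower, against 5.68% and 8.30% of all tested genes. These 6 are 4.35% of the receptor genes, a smaller share than that of all tested genes. With each library's trend with exon length removed, an alternative chosen after seeing the data, 0 of 138 passed over 6 libraries, against 0%, and 4 had an unadjusted p under 0.05, against 1.87%. The same removal in libraries 2 and 3 left 1 that passed, nhr-114, against 1.05%, and 2 higher and 4 lower at an unadjusted p under 0.05, against 4.81% and 6.24%.

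The family as a whole was close to level. The log2 fold change on the log2(FPKM + 1) scale had a median of 0.09 over the 138 genes and -0.03 over all tested genes. It was above 0 for 82 of 138, or 59.4%, against 47.7% of all tested genes. With quantile normalization this count was 53, against 46.7% of all tested genes, and the median -0.070, against -0.05. The balance of the family therefore depends on the scaling. It also depended on control library 1, without which 64 of 138 were above 0 and the median was -0.01, against 46.0% and -0.03 over all tested genes. Without tryptophan library 2 the median was 0.18, against -0.01 over all tested genes. In libraries 2 and 3 the count was 73 of 138, against 47.3% of tested genes, and the median 0.04. Individual log2 fold changes ran from -1.14 to 1.17, and 103 of 138 were under 0.5 in size. The lowest was that of nhr-2, which reached the floor only through control library 1. In all, 3 receptor genes had a control mean under 1 FPKM (nhr-140, nhr-59 and nhr-44). A tryptophan mean under 1 FPKM was found for 5 (nhr-2, nhr-181, nhr-6, nhr-190 and nhr-7). These genes reached the floor only through their higher group, so their place in the counts by direction is not support. The median residual SD was 0.39 for receptor genes and 0.64 for all tested genes on the log2 scale, and 0.19 and 0.20 in libraries 2 and 3.

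Every tryptophan value lay above every control value for 11 receptor genes, or 7.97%, against 3.98% of all tested genes. Every tryptophan value lay below every control value for 5, or 3.62%, against 4.32%. In libraries 2 and 3 the groups did not overlap for 63, against 46.4% of all tested genes. The 11 were nhr-17, nhr-105, nhr-135, nhr-133, nhr-104, nhr-100, nhr-47, nhr-79, nhr-99, nhr-193 and nhr-286. The 5 were nhr-114, nhr-274, nhr-122, nhr-156 and nhr-211. Among the 11 the gap was narrow for some. The highest control and lowest tryptophan values were 2.44 and 2.47 FPKM for nhr-286 and 2.91 and 2.99 FPKM for nhr-99. They were 4.99 and 5.09 FPKM for nhr-133, and further apart for nhr-47, at 4.35 and 5.35 FPKM.

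**Figure D1:**
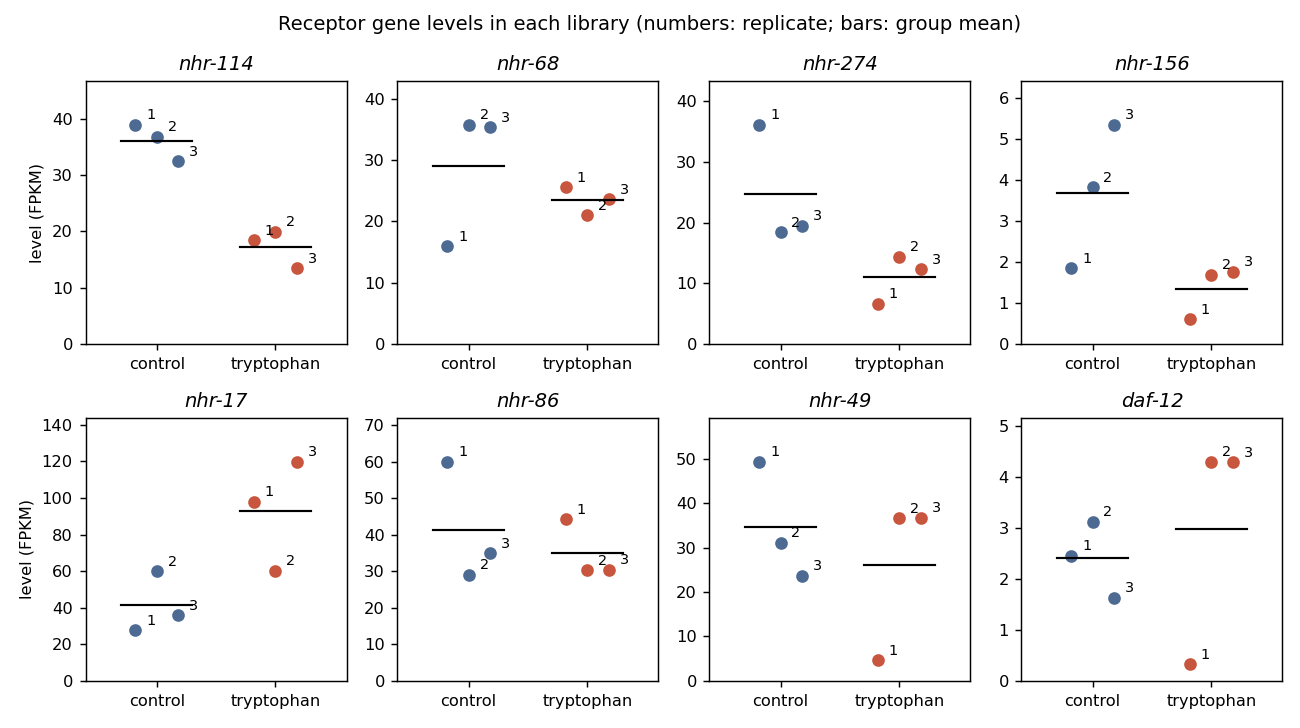
Levels of 8 receptor genes in FPKM (vertical axes, from 0), with a point per library numbered by replicate and a bar at each group mean. The groups do not overlap for nhr-114, nhr-274, nhr-156 and nhr-17, whereas nhr-49 and daf-12 show tryptophan library 1 far under the other 5.

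Receptors that tie transcription to vitamin B12, propionate and methionine were measured for 3 of 3 listed genes, and all 3 had a negative log2 fold change over 6 libraries, as did nhr-114 and nhr-68 but not nhr-10 in libraries 2 and 3. nhr-114 (Y45G5AM.1, chromosome V, 4187202 to 4190008) encodes an HNF4-like receptor that activates genes of the methionine cycle, and worms without it become sterile on some bacterial diets, a defect that added tryptophan is known to relieve. It stood at 38.9, 36.8 and 32.5 FPKM in control libraries 1 to 3 and at 18.4, 19.9 and 13.5 FPKM in tryptophan libraries 1 to 3. The groups were far apart, and the libraries numbered 1 lay close to the others of their group for this gene. Group means were 36.1 ± 3.26 FPKM and 17.3 ± 3.36 FPKM (SD, n = 3 each), and the log2 fold change was -1.03 (SE 0.37) at a limma adjusted p of 0.802. In libraries 2 and 3 it was also -1.03 (SE 0.24, limma adjusted p = 0.146). With the length trend removed as well, the value was -1.02 (SE 0.21, limma adjusted p = 0.0479).

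nhr-68 (H12C20.3, chromosome V, 11573440 to 11575709) and nhr-10 (B0280.8, chromosome III, 7112295 to 7115438) act in sequence to switch on the propionate shunt, the route that clears propionate when vitamin B12 is scarce. nhr-68 had 15.99, 35.7 and 35.4 FPKM across controls and 25.6, 21.0 and 23.7 FPKM under tryptophan. Control library 1 was the lowest of all 6, so the groups overlapped, while control libraries 2 and 3 lay above every tryptophan library. The log2 fold change was -0.22 (SE 0.44) over 6 libraries and -0.65 (SE 0.19) in libraries 2 and 3, with limma adjusted p of 0.886 and 0.232. nhr-10 stood at 6.85, 7.53 and 7.29 FPKM across controls and at 4.23, 7.96 and 10.2 FPKM under tryptophan. The tryptophan values of nhr-10 lay on either side of the controls, with a log2 fold change of -0.02 (SE 0.44) over 6 libraries and 0.26 (SE 0.22) in libraries 2 and 3.

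The genes known to answer to these receptors mostly had lower levels with tryptophan, and none passed over all genes in either fit. These lists, and those of other receptors below, were chosen with earlier results of these data known, so their counts are a description and not support. The median log2 fold change of all tested genes, for comparison, was -0.03 over 6 libraries and -0.02 in libraries 2 and 3. Of 5 propionate shunt genes, 5 had a negative log2 fold change over 6 libraries, with a median of -0.84, and 2 reached an unadjusted p under 0.05 in that direction (0.348% of all tested genes). acdh-1, the acyl-CoA dehydrogenase that opens the shunt, stood at 623.2, 682.2 and 723.9 FPKM across controls and at 375.0, 442.2 and 303.9 FPKM under tryptophan. hphd-1, the dehydrogenase of a later step, stood at 435.5, 394.8 and 436.3 FPKM and at 240.7, 292.7 and 182.8 FPKM. For acdh-1, hphd-1 and hach-1, a hydrolase of the same route, every tryptophan library lay below every control (4.32% of all tested genes). Their log2 fold changes were -0.87, -0.84 and -0.81 over 6 libraries and -0.94, -0.84 and -0.84 in libraries 2 and 3. alh-8, a dehydrogenase of the last steps, did not keep its value: the log2 fold change was -1.005 over 6 libraries and 0.03 in libraries 2 and 3. ech-6 had 642.6, 644.1 and 796.9 FPKM across controls and 811.2, 358.4 and 233.1 FPKM under tryptophan. Its groups overlapped, since tryptophan library 1 was the highest of all 6, and its log2 fold changes were -0.76 and -1.31.

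The list for NHR-114 and the methionine cycle held 7 genes and is broader than the cycle itself, since it includes the transporter pmp-5. Of the 7, 7 had a negative log2 fold change both over 6 libraries and in libraries 2 and 3. Over all genes 0 passed, with 1 at an unadjusted p under 0.05 in the lower direction over 6 libraries (0.348% of all tested genes). The median was -1.04 over 6 libraries and -0.30 in libraries 2 and 3. sams-1, which makes S-adenosylmethionine, had 189.1, 171.4 and 125.1 FPKM across controls and 22.8, 149.4 and 110.3 FPKM under tryptophan. Tryptophan library 1 was far under the other 5, which overlapped between the groups. In contrast, the groups did not overlap for mtrr-1, ahcy-1, mel-32 and pmp-5, with tryptophan lower (4.32% of all tested genes). pmp-5, a transporter of the peroxisomal ABC family, had 87.3, 88.7 and 88.5 FPKM across controls and 20.8, 67.4 and 45.3 FPKM under tryptophan. The 6 hypodermis markers, beside these 2 lists, summed to 2421, 1342 and 1357 FPKM across controls and 1044, 1029 and 830 FPKM under tryptophan, again with no overlap, and the 8 intestine markers to 4106, 3977 and 3881 FPKM and 2480, 5082 and 3672 FPKM. Their part in the values of these lists was not tested.

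Receptors of fat and energy metabolism gave no common direction. All 8 listed genes were measured, 4 leaned higher and 4 lower with tryptophan, and the test called 0 of them, also at an unadjusted p under 0.05. nhr-49 (K10C3.6, chromosome I, 9869651 to 9874680) controls fatty acid desaturation and beta-oxidation, and was among the 5 most abundant receptor genes. It had 49.4, 31.1 and 23.7 FPKM across controls and 4.63, 36.6 and 36.8 FPKM under tryptophan. Tryptophan library 1 alone lay below the controls, and the log2 fold change turned from -0.77 (SE 0.79) over 6 libraries to 0.42 (SE 0.21) in libraries 2 and 3. nhr-66, which works with NHR-49 on sphingolipid genes, was likewise lowest in tryptophan library 1, at 44.8, 17.3 and 14.2 FPKM across controls and 6.09, 19.7 and 16.7 FPKM under tryptophan. Its log2 fold change was -0.76 and 0.20 in the same fits. With the length trend removed, the values in libraries 2 and 3 differed in sign, at 0.30 for nhr-49 and -0.28 for nhr-66.

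The partners of NHR-49 in fatty acid desaturation were nearer to level. nhr-80 had 4.25, 6.74 and 5.26 FPKM across controls and 6.81, 5.50 and 4.42 FPKM under tryptophan, for a log2 fold change of 0.04 (SE 0.40). nhr-13 had 14.04, 6.08 and 5.26 FPKM and 6.06, 4.70 and 5.27 FPKM, and its log2 fold change of -0.47 (SE 0.47) rested on control library 1. It was -0.16 in libraries 2 and 3. nhr-76, needed for the fat loss that serotonin induces, had 3.71, 4.77 and 3.11 FPKM and 2.27, 2.99 and 3.28 FPKM. The groups overlapped for it, with a log2 fold change of -0.33 (SE 0.37). The log2 fold changes of nhr-62, which dietary restriction needs to extend lifespan, nhr-64 and nhr-69 were 0.23, 0.01 and 0.08.

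The 10 genes listed for NHR-49 were split, with 5 positive and 5 negative log2 fold changes and a median of -0.17. None passed over all genes in either fit, and 2 reached an unadjusted p under 0.05 in the lower direction over 6 libraries, against 0.348% of all tested genes. The groups did not overlap for 4 of the 10, with tryptophan lower for fat-5, fat-7 and hacd-1 (4.32% of all tested genes) and higher for ech-1.1 (3.98%). ech-1.1, of the mitochondrial beta-oxidation complex, had a log2 fold change of 0.41 over 6 libraries and 0.31 in libraries 2 and 3. fmo-2, a flavin monooxygenase, had 0.49 and 0.88, with overlapping groups over 6 libraries. The fatty acid desaturase fat-5 had 18.5, 19.6 and 13.1 FPKM across controls and 5.38, 10.8 and 7.97 FPKM under tryptophan, for a log2 fold change of -1.02. fat-7 passed in libraries 2 and 3 with the length trend removed (limma adjusted p = 0.0283), while fat-6, its close paralog, had a log2 fold change of 0.02 in libraries 2 and 3. How reads of such paralogs were divided is not given. acs-2, an acyl-CoA synthetase induced by fasting, had a log2 fold change of -0.41.

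mdt-15, the Mediator subunit that binds NHR-49, had the widest swing of the 4 listed coregulators. It stood at 51.9, 31.9 and 14.6 FPKM across controls and at 0.768, 44.0 and 35.1 FPKM under tryptophan. The log2 fold change was -1.08 over 6 libraries and 0.83 in libraries 2 and 3, and all 4 coregulators turned in this way, from 4 negative to 4 positive values. Their exons are long, from 3394 to 9785 bp, and with the length trend removed the values of mdt-15, cbp-1, din-1 and sbp-1 in libraries 2 and 3 were 0.40, 0.48, 0.03 and -0.09.

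Receptors of foreign compounds, metals and immunity were likewise without a call. Of 7 listed genes 6 were found and tested, 3 positive and 3 negative, with 0 at an unadjusted p under 0.05. nhr-86 (Y40B10A.8, chromosome V, 2061106 to 2066850), which drives intestinal defence genes in response to a bacterial metabolite, was among the 5 most abundant receptor genes. It had 60.04, 29.1 and 34.9 FPKM across controls and 44.3, 30.3 and 30.4 FPKM under tryptophan. The groups overlapped throughout, with a log2 fold change of -0.19 (SE 0.42) over 6 libraries and -0.07 in libraries 2 and 3. nhr-8, a receptor for resistance to toxins and for cholesterol balance, had 5.72, 9.46 and 9.29 FPKM and 8.17, 10.5 and 11.2 FPKM, for a log2 fold change of 0.28 (SE 0.41).

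Beside this, the immune genes listed below NHR-86 had higher levels with tryptophan. Of 5 genes, 5 were positive, 5 had every tryptophan library above every control (3.98% of all tested genes), and 5 reached an unadjusted p under 0.05 in the higher direction (0.822%). None passed over all genes in 6 libraries, and 3 passed in libraries 2 and 3: irg-4, irg-5 and irg-6, infection response genes, with limma adjusted p of 0.00455, 0.00101 and 0.0326 (0.252% of all tested genes passed there in the higher direction). irg-6 had a control mean of 0.755 FPKM and reached the floor of 1 FPKM only through the tryptophan libraries. Its call and its place in these counts are given as values and not as support. The list was chosen with earlier results of these data known, so its counts are a description and not support. mul-1, a mucin-like gene, had 1.26, 2.76 and 3.61 FPKM across controls and 11.1, 8.87 and 6.17 FPKM under tryptophan, for a log2 fold change of 1.48 over 6 libraries and 1.01 in libraries 2 and 3. drd-50 had 1.04, 1.995 and 1.93 FPKM across controls and 4.13, 4.56 and 5.08 FPKM under tryptophan, for a log2 fold change of 1.09, and passed in libraries 2 and 3 with the length trend removed (limma adjusted p = 0.0404). The irg genes also answer to the p38 kinase pathway, so this list does not belong to NHR-86 alone.

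nhr-176 (F14H3.11, chromosome V, 16071325 to 16072738), which is needed to induce cyp-35D1 by the drug thiabendazole, had 0.630, 1.96 and 2.15 FPKM across controls and 7.23, 1.94 and 1.53 FPKM under tryptophan. Only tryptophan library 1 lay above the controls, and the log2 fold change went from 0.67 (SE 0.55) to -0.16 in libraries 2 and 3. cyp-35D1, a cytochrome P450 gene, had 0.710, 0.306 and 0.362 FPKM across controls and 4.23, 2.48 and 1.89 FPKM under tryptophan. Its groups did not overlap, and the log2 fold change was 1.37 (SE 0.35) over 6 libraries and 1.25 in libraries 2 and 3, with limma adjusted p of 0.802 and 0.0677. With the length trend removed in libraries 2 and 3 the limma adjusted p was 0.0427, for a gene that reached the floor only through the tryptophan libraries. nhr-42 had 3.83, 5.15 and 3.33 FPKM and 13.2, 4.99 and 6.49 FPKM, for a log2 fold change of 0.77 (SE 0.47) that was 0.38 in libraries 2 and 3. nhr-14, a repressor of iron uptake and of defence genes, and nhr-45, which acts in the response to failing mitochondria, had log2 fold changes of -0.03 and -0.28. Both were lowest in tryptophan library 1, at 0.829 and 1.38 FPKM.

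**Figure D2:**
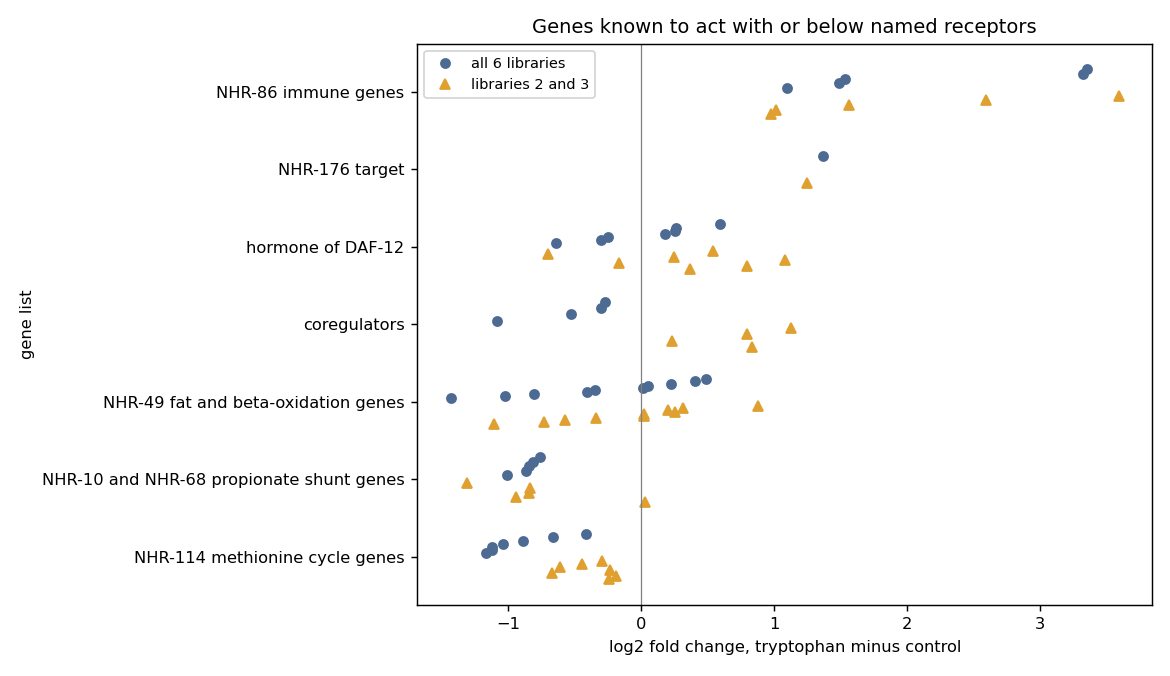
Log2 fold change of tryptophan over control (horizontal axis) for each tested gene of 7 lists known to act with or below named receptors (vertical axis), over all 6 libraries (circles) and over libraries 2 and 3 of each group (triangles). The 5 NHR-86 immune genes are positive in both, the 7 genes listed for NHR-114 and the methionine cycle negative in both, and the 4 coregulators turn from negative to positive.

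Receptors of development, moulting and dauer formation varied mainly between libraries. Of 12 listed genes 8 reached the floor, with 2 log2 fold changes above 0 and 6 under 0 over 6 libraries, and 5 of 8 above 0 in libraries 2 and 3. None of the 8 passed or reached an unadjusted p under 0.05. Among the 6, nhr-2 and nhr-6 had tryptophan means of 0.764 and 0.894 FPKM and reached the floor only through the controls. Their sign is therefore not given as support. The moulting receptor nhr-25 and nhr-67, nhr-60 and nhr-111 lay under 1 FPKM. daf-12 (F11A1.3, chromosome X, 10635908 to 10666875), the steroid receptor that decides between reproductive growth and dauer, had 2.46, 3.12 and 1.63 FPKM across controls and 0.332, 4.31 and 4.29 FPKM under tryptophan. Tryptophan libraries 2 and 3 lay above every control and library 1 below every control. The log2 fold change was -0.00 (SE 0.60) over 6 libraries and 0.69 (SE 0.26) in libraries 2 and 3, with limma adjusted p of 0.999 and 0.314. With the length trend removed the value in libraries 2 and 3 was 0.24.

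nhr-48, a close relative of DAF-12, had 13.6, 8.41 and 2.92 FPKM across controls and 0.518, 9.15 and 8.43 FPKM under tryptophan, for a log2 fold change of -0.63 (SE 0.86). It was 0.69 in libraries 2 and 3. nhr-41, nhr-91 and nhr-1 were likewise lowest in tryptophan library 1, at 0.295, 0.366 and 1.995 FPKM. nhr-85, an E75 homologue that drives a pulse of the timing microRNA lin-4, had 0.456, 4.63 and 2.49 FPKM and 0.838, 3.76 and 3.94 FPKM. Its low values were in the libraries numbered 1 of both groups, and 835 bp of its exons overlap npr-14. nhr-6, which shapes the spermatheca, had a log2 fold change of -0.29 (SE 0.34). Its control mean was 1.29 FPKM and its tryptophan mean 0.894 FPKM, so it reached the floor only through the controls.

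nhr-2 (C32F10.6, chromosome I, 5818474 to 5821134), a maternally supplied receptor of the early embryo, had 12.3, 1.18 and 0.965 FPKM across controls and 0.564, 1.09 and 0.637 FPKM under tryptophan. Control library 1, where yolk genes and oocyte genes were highest, held more than the other 5 libraries together. The 14 oocyte markers summed to 10429 FPKM there, against 1097 to 2689 FPKM in the other 5. The part of these markers in the nhr-2 value was not tested. Its log2 fold change, the lowest of the family at -1.14 (SE 0.73), was -0.16 in libraries 2 and 3. nhr-2 reached the floor of 1 FPKM only through control library 1, and its tryptophan mean was 0.764 FPKM. This value is therefore not given as support.

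The 7 tested genes listed for DAF-12 and its hormone include din-1, which is also counted among the coregulators. They gave 4 positive and 3 negative values over 6 libraries, with a median log2 fold change of 0.18. In libraries 2 and 3 there were 5 positive and 2 negative values, with a median of 0.37. None passed over all genes in either fit. Between the fits strm-1 went from 0.27 to -0.70, ncr-1 from 0.18 to 1.09, emb-8 from -0.64 to 0.37 and din-1 from -0.30 to 0.79. daf-36, the oxygenase that opens the synthesis of dafachronic acid, had 7.34, 6.69 and 7.98 FPKM across controls and 8.99, 9.44 and 8.32 FPKM under tryptophan. daf-9, the P450 of the last step, had 1.41, 1.47 and 1.38 FPKM and 0.801, 1.1 and 1.24 FPKM. The groups did not overlap for either, in opposite directions, with log2 fold changes of 0.25 (SE 0.38) and -0.25 (SE 0.29).

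Both genes listed for other tissues were measured. nhr-31, needed to form the excretory canal, had 10.9, 20.2 and 18.2 FPKM across controls and 9.04, 20.8 and 23.6 FPKM under tryptophan, low in the libraries numbered 1 of both groups. Its log2 fold change was 0.05 (SE 0.50). nhr-40, which acts in embryos and muscle, had -0.01 over 6 libraries and 0.55 in libraries 2 and 3. Of 5 nuclear receptors that bear other names, unc-55, fax-1 and odr-7 lay under the floor, with means of 0.320, 0.116 and 0.0242 FPKM, and neither of the 2 tested passed. sex-1, which counts X chromosomes in the embryo, had a log2 fold change of -0.76 (SE 0.66) and 0.26 in the 2 fits, and the zinc-sensing receptor hizr-1 had -0.17 and -0.26.

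Of the receptors outside these roles, nhr-17 (C02B4.2, chromosome X, 12663837 to 12667854) was the most abundant of the 138 by its mean and had the highest log2 fold change. It stood at 27.8, 60.1 and 35.8 FPKM across controls and at 98.0, 60.1 and 119.9 FPKM under tryptophan. The groups were barely apart, since control library 2 and tryptophan library 2 were almost level. Means were 41.2 ± 16.8 FPKM and 92.7 ± 30.2 FPKM (SD, n = 3 each), a log2 fold change of 1.17 (SE 0.45) and of 0.86 (SE 0.36) in libraries 2 and 3, with limma adjusted p of 0.802 and 0.350. Its exons share 67 bp with nlp-76.

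nhr-274 (Y41D4B.21, chromosome IV, 1637954 to 1645298) had 36.1, 18.5 and 19.5 FPKM across controls and 6.66, 14.4 and 12.4 FPKM under tryptophan. The groups did not overlap, but the libraries numbered 1 lay outermost on either side. The log2 fold change was -1.08 (SE 0.48) over 6 libraries and -0.48 (SE 0.20) in libraries 2 and 3. nhr-156 (C17E7.1, chromosome V, 3906106 to 3908452) had 1.85, 3.84 and 5.35 FPKM across controls and 0.608, 1.69 and 1.76 FPKM under tryptophan. Its log2 fold change of -0.96 (SE 0.44) was -1.02 (SE 0.23) in libraries 2 and 3, with the smallest limma adjusted p of the family there, 0.138. nhr-211 had 2.16, 1.64 and 1.52 FPKM and 1.39, 1.06 and 0.839 FPKM, for a log2 fold change of -0.41 in both fits (SE 0.31 over 6 libraries and 0.21 in libraries 2 and 3). No role is given for these 3 genes here.

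Some of the genes with tryptophan higher had a similar log2 fold change in both fits. nhr-47 had 3.04, 4.35 and 3.42 FPKM across controls and 5.35, 5.56 and 6.15 FPKM under tryptophan, with log2 fold changes of 0.55 (SE 0.37) over 6 libraries and 0.49 in libraries 2 and 3. nhr-105 had 11.9, 16.9 and 12.5 FPKM and 20.7, 17.05 and 26.8 FPKM, with 0.60 (SE 0.40) and 0.52. Its groups were barely apart, since control library 2 and tryptophan library 2 were almost level. nhr-100 had 4.27, 4.41 and 4.57 FPKM and 5.44, 5.37 and 5.93 FPKM, with 0.28 in both fits. Others were smaller without the libraries numbered 1. nhr-135 had 3.30, 4.29 and 4.07 FPKM across controls and 16.1, 4.84 and 5.56 FPKM under tryptophan, and its log2 fold change of 0.83 was 0.26 in libraries 2 and 3. nhr-107, nhr-99, nhr-177, nhr-146 and nhr-94 went from 0.93, 0.85, 0.77, 0.76 and 0.71 to between 0.11 and 0.31. Among them nhr-107, nhr-99 and nhr-94 stood out more by a low control library 1, at 1.04, 0.516 and 0.424 FPKM, than by a high tryptophan library 1. In the lower direction nhr-71, nhr-181 and nhr-20 went from -0.96, -0.73 and -0.62 to -0.06, -0.01 and -0.34. nhr-181 had 4.25 FPKM in control library 1 and a tryptophan mean of 0.744 FPKM, and reached the floor only through that control library.

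**Figure D3:**
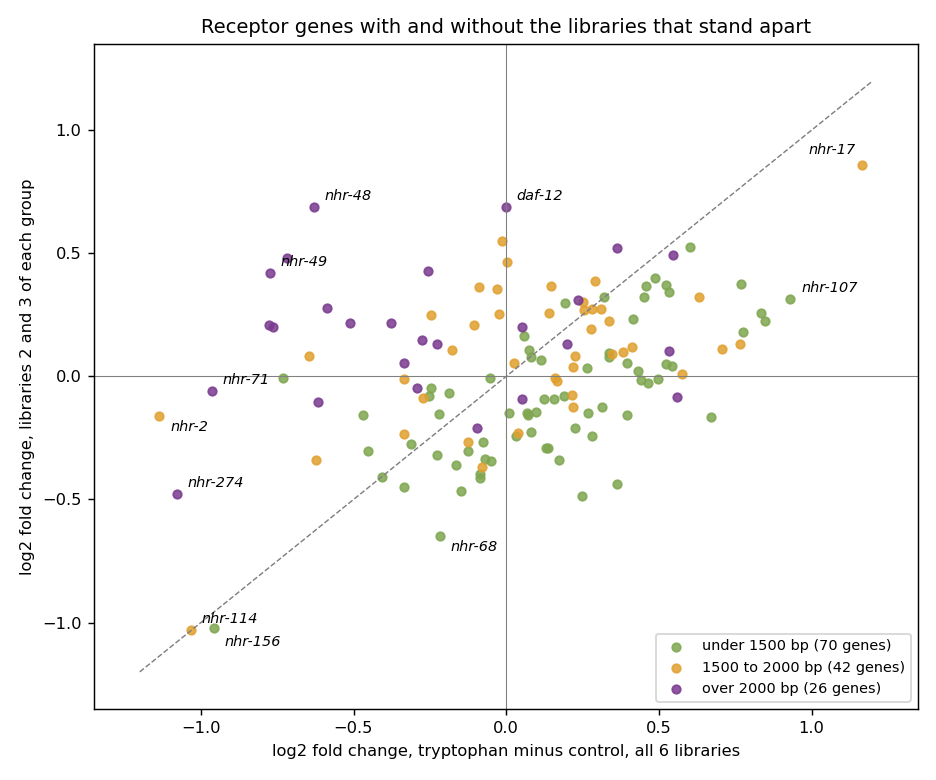
Log2 fold change of the 138 receptor genes over all 6 libraries (horizontal axis) against that in libraries 2 and 3 of each group (vertical axis), coloured by exon length, with equal values on the dashed line. nhr-114 and nhr-156 lie on or near the line at about -1, nhr-17 at the upper right, and genes over 2000 bp mostly to the left of the line.

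The level of a receptor gene in tryptophan library 1 went with the length of its exons. Over the 138 genes, log2 level in tryptophan library 1 minus the mean of tryptophan libraries 2 and 3 had a Spearman correlation of -0.69 with exon length, and of -0.69 over 13388 tested genes. This describes 3 libraries, and genes that share a library are not independent. Of 26 receptor genes over 2000 bp, 18 were lowest of all 6 libraries in tryptophan library 1 and 3 were highest there. Of 70 genes under 1500 bp, 5 were lowest and 40 highest there. The median difference was -1.42 for the long and 0.53 for the short genes, beside -1.21 and 0.70 over all tested genes of these lengths. nhr-88, of 3145 bp, had 0.371 FPKM in tryptophan library 1 and 10.98 and 9.02 FPKM in libraries 2 and 3, the largest such gap of the family. At the other end nhr-176, of 1217 bp, had 7.23 FPKM against 1.94 and 1.53 FPKM.

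Libraries 2 and 3 were not free of the relation. There the log2 fold change had a Spearman correlation with exon length of 0.40 over the receptor genes and 0.55 over all tested genes, of the opposite sign to the 6-library value of -0.30. Its median was 0.20 for genes over 2000 bp, with 19 of 26 positive, and -0.09 for genes under 1500 bp, with 25 of 70 positive. The part of length in the values of nhr-49, nhr-66, daf-12, nhr-48 and the coregulators was not tested beyond the alternative with the trend removed. nhr-114, at 1521 bp, kept a value between -1.03 and -0.97 over 6 libraries with or without that trend.

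**Figure D4:**
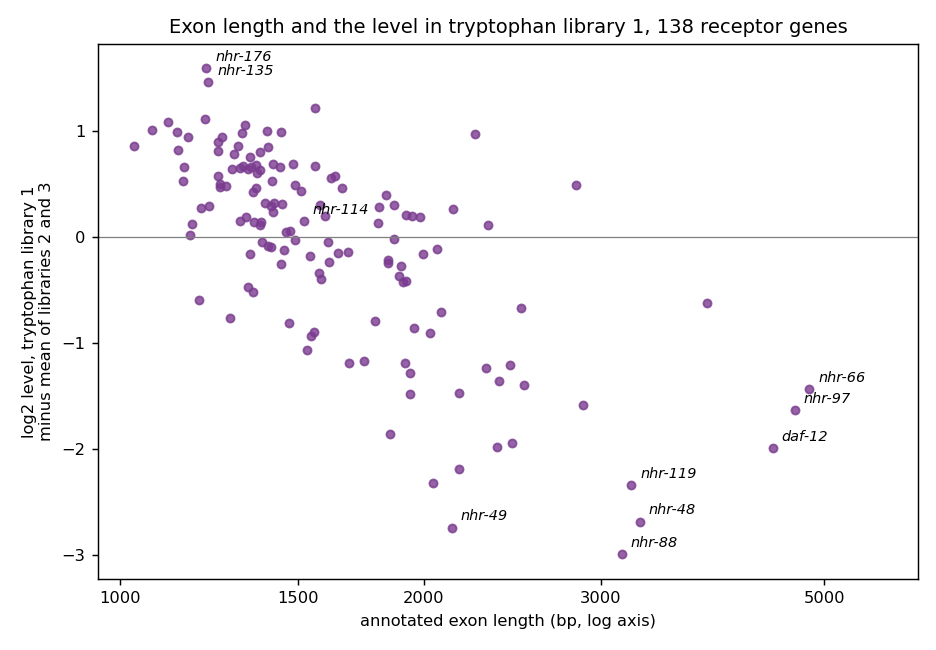
Annotated exon length in bp (horizontal log axis) against log2 level in tryptophan library 1 minus the mean of tryptophan libraries 2 and 3 (vertical axis), with a point for each of the 138 receptor genes. Genes over 2000 bp such as nhr-88, nhr-48 and daf-12 lie far under 0 and most genes under 1500 bp lie above it, with nhr-114 close to 0.

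Levels across the family were low. The median of the mean levels was 3.16 FPKM, against 13.7 FPKM for all tested genes, and 11 of 138 reached 10 FPKM, 30 lay between 5 and 10, and 97 under 5. After nhr-17 the most abundant were nhr-86, nhr-49, nhr-97 and nhr-114. nhr-97 (H27C11.1) had 31.1, 27.6 and 28.1 FPKM across controls and 9.82, 32.05 and 33.1 FPKM under tryptophan, with library 1 again low in a gene of 4671 bp. Exons of 32 receptor genes overlapped those of another gene, 6 of them by more than 100 bp (nhr-66, nhr-101, nhr-85, nhr-232, nhr-136 and nhr-142), and whether counting used the strand is not given. The steadiest genes were nhr-126, from 1.82 to 2.37 FPKM over the 6 libraries, and nhr-212, from 2.20 to 2.87 FPKM. The range was widest for nhr-48, at 3.27 on the log2 scale, followed by nhr-49, nhr-88, nhr-2 and nhr-71. Tryptophan library 1 was the highest library for 51 and the lowest for 38 receptor genes, and control library 1 the highest for 23 and the lowest for 63. As shares these are 37.0%, 27.5%, 16.7% and 45.7% of the receptor genes, beside 36.3%, 34.5%, 37.1% and 35.1% of all tested genes.

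**Figure D5:**
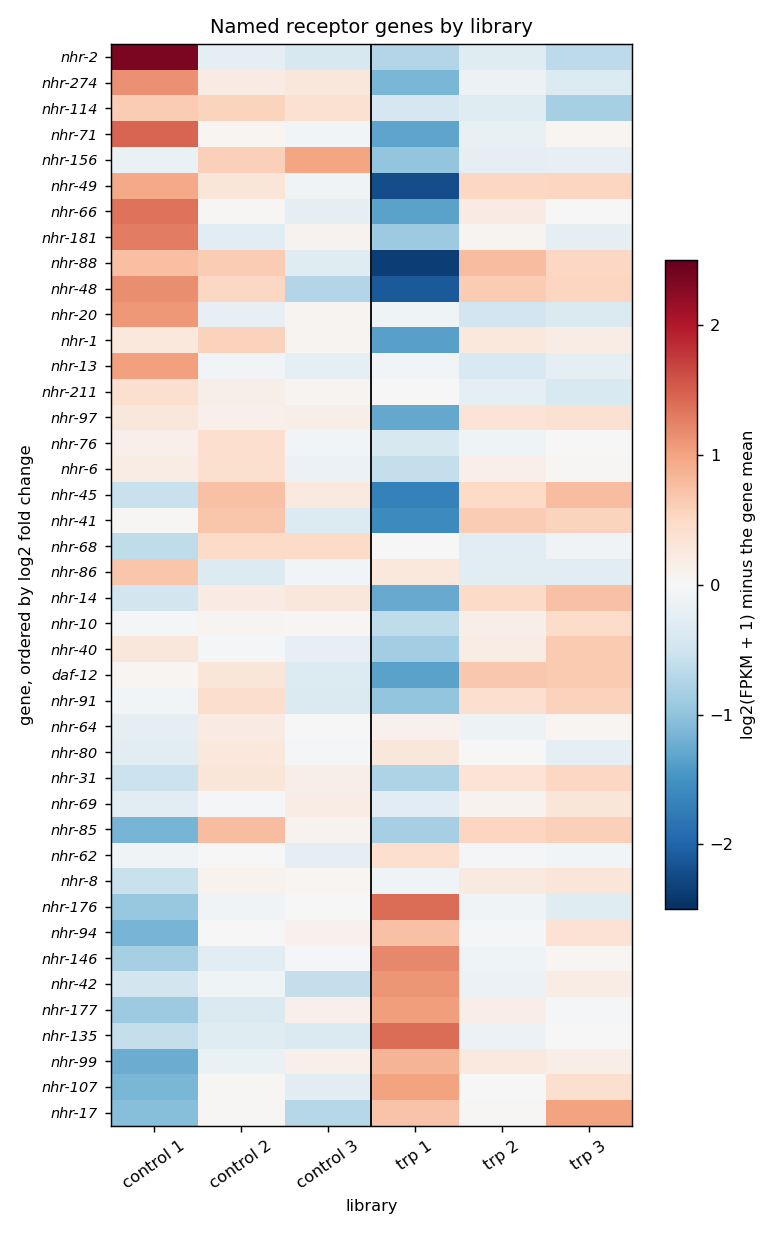
Log2(FPKM + 1) minus the gene's mean (colour, red above and blue below) for the 42 receptor genes named by the fixed rule (rows, ordered by log2 fold change) in each library (columns). Most strong colours stand in control 1 and tryptophan 1, while nhr-114 is red in all 3 control and blue in all 3 tryptophan columns.

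The receptor genes were unevenly placed in the genome. Chromosome V held 80 of the 138, or 58.0%, against 18.7% of tested genes with a known place, and chromosomes I to III together held 19. Of the 138, 38 lay in 6 clusters of at least 4 members with gaps of at most 10 kb. The largest held 11 genes on chromosome V, 453869 to 497297, from nhr-98 to nhr-131, with mean levels of 1.30 to 4.80 FPKM. A cluster of 9 genes on chromosome V, 2210510 to 2235180, from nhr-133 to nhr-96, had its highest level in tryptophan library 1 for 7 and its lowest in control library 1 for 7.

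Log2 levels within that cluster of 9 had a median pairwise correlation of 0.62 over the 6 libraries, against 0.11 over all pairs of receptor genes. The value was 0.10 in the largest cluster, of 11 genes, and 0.51, 0.45 and 0.60 in the remaining clusters on chromosome V. This is a description over 6 points, and the genes of the cluster of 9 are short, with a median of 1308 bp. The median log2 fold change of that cluster was 0.14 over 6 libraries, with 8 of 9 positive, and -0.15 in libraries 2 and 3, with 4 of 9 positive. A cluster on chromosome IV, 1613892 to 1645298, held nhr-122, nhr-92, nhr-87, nhr-146 and nhr-274. Its members differed, with a median pairwise correlation of -0.02, and 2 of the 5 receptor genes whose tryptophan values all lay below the controls, nhr-122 and nhr-274, stood in it. nhr-122 had 6.50, 5.64 and 5.17 FPKM across controls and 4.84, 4.52 and 5.00 FPKM under tryptophan, for a log2 fold change of -0.22 (SE 0.37).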

How the data were processed

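The authors deposited 1 table of FPKM values per library (fragments per kilobase of gene model, scaled to mapped fragments), per the file headers. Bowtie 0.12.2, StringTie and the build WBcel235 are named, per the submitters' processing notes. How reads of close paralogs were divided, which strand was counted, how libraries were scaled and which annotation release served is not given in the sources used here. Of 46589 identifiers, 46180 matched the WBcel235 annotation (Ensembl release 115), which gave symbols, 1-based coordinates and exon lengths.

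Values were analysed as log2(FPKM + 1), a scale that understates fold changes of low genes. The 13511 genes with a mean of at least 1 FPKM were tested in limma 3.58.1 (R 4.3.3; group as the term, eBayes with trend, two-sided, Benjamini-Hochberg adjustment over all tested genes, threshold 0.05). A count model was not used, because the values are not counts. An exact permutation test of 3 against 3 libraries cannot go below p = 0.10. Counted units behind the values were estimated from FPKM times transcript length, which for 12495 single-transcript genes of at least 600 bp fell within 0.2 of a whole multiple of 1 step for 73.9% to 76.7% of low values. No counts were rebuilt from them.

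Named genes were those of a list of known roles, the 8 smallest p in each direction, members called in either fit, the 5 most abundant and the 5 with the widest range, together with members whose groups did not overlap, cluster members and others singled out after their values were seen. The members and lists were chosen with earlier results of these data known. Alternatives comprised other pseudocounts (0.1 and 0.5), testing without a floor or with one of 5 FPKM, rescaling to TPM, quantile normalization, a replicate block, each library left out, libraries 2 and 3 only, and a stage score as covariate (yolk minus sperm genes). Removal of each library's trend with exon length (lowess, span 0.3; 13388 genes with an annotated length) was added after seeing the data. A few genes of the family are not reported here. Python 3.11.15, numpy 2.4.6, pandas 2.3.3, scipy 1.17.1 and matplotlib 3.10.9 were used.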

Additional observations from a re-analysis of the deposited data

How the results depend on the processing

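No receptor gene passed over all genes under any alternative except nhr-114, in libraries 2 and 3 with the length trend removed (1 receptor gene and 141 of all genes called). In libraries 2 and 3 without that removal 68 of all genes and 0 receptor genes were called. The 2 receptor genes at an unadjusted p under 0.05 became 1 with rescaling to TPM, 4 with quantile normalization, 0 with a replicate block, 6 in libraries 2 and 3, 4 with the length trend removed, 6 with that removal in libraries 2 and 3, and 0 to 2 with 1 library left out. The 16 whose groups did not overlap (8.30% of all tested genes) became 8 of the 41 at a mean of at least 5 FPKM (8.02%), 63 in libraries 2 and 3 (46.4%), 53 with the length trend also removed (40.8%), and 23 to 38 with 1 library left out (10.7% to 26.4%). The 82 with a positive log2 fold change became 19 of 41 at a mean of at least 5 FPKM and 53 with quantile normalization. The median of 0.09 became -0.050 and -0.070 there. Over all tested genes the share above 0 was 39.7% and 46.7% in these settings, and the median -0.16 and -0.05. With 1 library left out the count of receptor genes ran from 64 to 90 and their median from -0.01 to 0.18. The share of all tested genes above 0 then ran from 46.0% to 49.5%. Rescaling to TPM moved the median over all genes from -0.03 to 0.07. The causes were not tested.

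Same-numbered libraries deviated from their group means in opposite ways (correlations of -0.37, -0.30 and -0.34). Whether the replicate numbers pair the samples is not given. These values cannot settle it, since the deviations of 3 libraries from their own mean are tied to each other. The block is therefore only a check. Of 42 genes named by the fixed rule, 21 kept the sign of their log2 fold change in every alternative. nhr-114 lay between -1.14 and -0.87 with 1 library left out. The few counted units behind the lowest genes limit their precision.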
